A study of Mus musculus with 12 samples.

Results

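Interferon stimulated genes are the genes that cells switch on when interferon reaches its receptor. The set described here was a given list of 37 such genes: the transcription factors of the response and the effectors that act on viral RNA, viral entry, budding and protein tagging. The members were found by matching their symbols to the 40202 genes of the deposited table, and 35 of the 37 were found there. Mx1 and Mx2 are not analysed here. All 35 passed the filter on low values and were tested among 25633 genes, although Oas3 passed only through the CNV cp-asiNRL libraries. Counts over all 35 members include Oas3, and its p in comparisons with that group is no independent support. The members with the fewest reads in any library were Oas3, Oasl1, Oas1a and Isg15, with lowest values of 1, 3, 4 and 7 reads, so the fold changes of these 4 genes rest on few reads.

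The study sequenced poly(A) RNA of mouse retina in 12 libraries, 3 in each of 4 groups, to see what a small interfering RNA against Nrl, the transcription factor that sets rod identity, does to the retina. All mice were C57BL/6J, and every eye had an injection of 1 µl into the vitreous. The CNV cp-asiNRL group came from mice with laser-induced choroidal neovascularization (CNV), in which laser burns break the membrane under the retina and choroidal vessels grow in, and had cp-asiNRL, a cell-penetrating asymmetric small interfering RNA, at 6 µg/µl. The CNV vehicle group had the same laser model and 0.5X PBS. The WT cp-asiNRL group had no laser and cp-asiNRL at 6 µg/µl, and the WT vehicle group had no laser and 0.5X PBS. The names of the deposited columns give the laser model for the CNV libraries and the treatment for all 12, but not WT, so the columns without the laser name were taken as WT by elimination. Mice were assigned to treatment or vehicle at random. The 12 libraries hold no uninjected retina and none from an eye given an RNA of another sequence. The labels do not give the age of the mice, the time after injection or how many eyes went into a library, so p-values reflect no more than how far these libraries vary, which may be technical.

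Type I interferons bind the receptor pair Ifnar1 and Ifnar2, whose kinases phosphorylate transcription factors such as Stat2. With Irf9 these form the complex ISGF3, which binds a short repeat of GAAA letters, the interferon stimulated response element, in the promoters of its targets. RNA sensors such as Ifih1, Ddx58 (RIG-I), Tlr3 and Tlr7 start interferon production when they meet viral or foreign RNA, and in the retina microglia, infiltrating leukocytes and glia can all respond.

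Promoter sequences are shown because a form of this element was found in some of the members. RefSeq (GRCm38.p6) gave a promoter of 300 bases, 250 before and 50 from the annotated start on, for 29 of the 37 members, in 36 promoters. The letters GAAA, 2 bases of any kind and GAAA again, searched on both strands with overlapping matches kept, were found in 12 of the 29 (41.4%), against 1079 of 27025 genes with a promoter entry (3.99%). The 6 members below hold it and had the smallest p in the comparison of CNV cp-asiNRL with CNV vehicle. Each line gives 30 bases, 5′ to 3′ on the gene's strand, with the match in capitals; TTTC letters mark a match on the other strand.
Ifit3b, chr19:34607759-34607788, plus strand, 188 bases before the start: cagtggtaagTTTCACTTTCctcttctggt
Ifit3b, chr19:34607793-34607822, plus strand, 154 bases before the start: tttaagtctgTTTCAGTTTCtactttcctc
Ifit3, chr19:34583363-34583392, plus strand, 156 bases before the start: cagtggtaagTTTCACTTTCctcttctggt
Ifit3, chr19:34583397-34583426, plus strand, 122 bases before the start: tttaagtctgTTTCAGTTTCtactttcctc
Trim30a, chr7:104465210-104465239, minus strand, 36 bases before the start: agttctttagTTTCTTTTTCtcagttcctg
Stat2, chr10:128270266-128270295, plus strand, 222 bases before the start: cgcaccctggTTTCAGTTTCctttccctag
Oas1a, chr5:120907526-120907555, minus strand, 20 bases before the start: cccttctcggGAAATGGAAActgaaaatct
Oas1a, chr5:120907520-120907549, minus strand, 14 bases before the start: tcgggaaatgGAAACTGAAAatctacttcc
Oas3, chr5:120777715-120777744, minus strand, 75 bases before the start: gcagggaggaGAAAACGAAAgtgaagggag

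The promoters of Ifit3 and Ifit3b, neighbouring genes on chromosome 19, share an identical run of 169 bases that holds both matches, 34 bases apart in each. The 250 bases before the start of Ifit3 (chr19:34583279-34583528, plus strand) show the pair in its setting.
Ifit3: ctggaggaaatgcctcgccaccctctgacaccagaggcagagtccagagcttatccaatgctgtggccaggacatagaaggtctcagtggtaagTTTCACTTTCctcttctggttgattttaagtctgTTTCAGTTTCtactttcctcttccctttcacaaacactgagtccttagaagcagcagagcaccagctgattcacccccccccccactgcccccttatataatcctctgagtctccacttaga
The other holders were Ifit1, Isg15, Ifitm3, Rsad2, Lgals9 and Bst2, and Isg15 held 3 overlapping matches. Of the 17 members without a match in this window, Oasl2 had the smallest p in that comparison, and its 250 bases (chr5:114896684-114896933, plus strand) are given for contrast.
Oasl2: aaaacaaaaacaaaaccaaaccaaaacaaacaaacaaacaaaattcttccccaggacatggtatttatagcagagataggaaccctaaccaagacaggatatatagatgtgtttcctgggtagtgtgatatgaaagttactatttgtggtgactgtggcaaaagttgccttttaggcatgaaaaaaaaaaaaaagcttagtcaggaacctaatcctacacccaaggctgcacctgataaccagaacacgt
No match says only that these letters are not in this window. The map of matches by distance from the start shows that they lay on both strands and at no fixed distance.

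**Figure D1:**
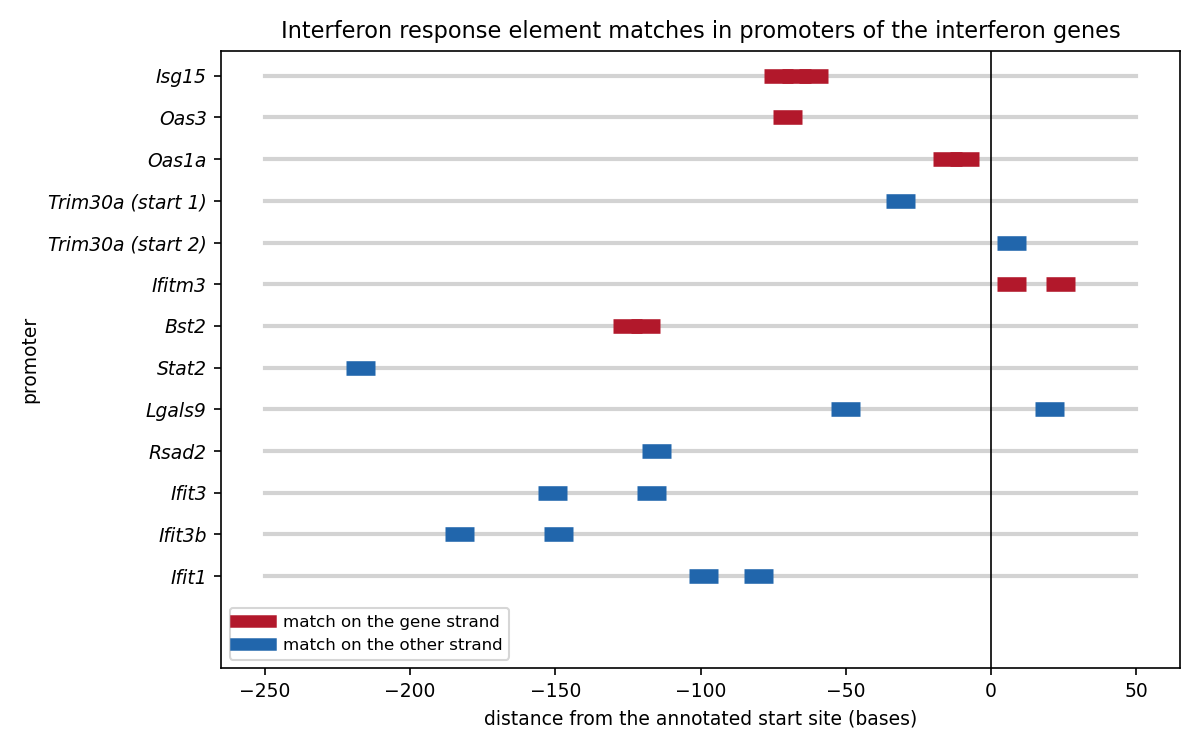
Matches to GAAA, 2 bases of any kind and GAAA in the promoters of the 12 members that held one, by distance in bases from the annotated start (x axis), 1 row per promoter; red marks a match on the gene's strand and blue one on the other strand. Most matches lie within 160 bases before the start, those of Ifit3b and Stat2 reach 188 and 222 bases before it, and Ifitm3, Lgals9 and the second Trim30a start have matches after it.

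Library totals were 51298466 to 69394486 reads. Levels are given as CPM, a gene's reads over its library's total scaled by trimmed means, in replicate order 1, 2 and 3. The labelled tissue was borne out by its rod genes: Gnat1, Nrl, Nr2e3 and Pde6b together made up 2691 to 5171 CPM in each library. Nrl, the target of the small interfering RNA, had 324, 483 and 263 CPM in CNV cp-asiNRL retina, against 449.5, 423 and 524 CPM in CNV vehicle retina, and 397, 418 and 468 CPM with cp-asiNRL against 560.1, 505 and 555 CPM with vehicle in WT retina. The 4 rod genes together had 3185, 4625 and 2691 CPM in CNV cp-asiNRL retina, against 4535, 3922 and 4724 CPM in CNV vehicle retina. In CNV retina Nrl thus moved with the rod genes as a whole. Whether its level shows the action of the small interfering RNA was not tested. In Nrl and in the rod sum, the replicate 2 library labelled CNV cp-asiNRL lay inside the range of its vehicle libraries. Results that rest on it are given with and without it: the member counts of each comparison, the changes of single members and the pathway and marker lists in CNV cp-asiNRL over CNV vehicle retina.

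The interferon genes were highest in 2 libraries of the CNV cp-asiNRL group and lowest in WT vehicle retina. Relative to the mean of the WT vehicle libraries, the median member differed by 1.24, 0.33 and 1.92 on the log2(CPM + 1) scale in the CNV cp-asiNRL libraries and by 0.40, 0.58 and 0.37 in the CNV vehicle libraries. It differed by 0.56, 0.13 and 0.018 in the WT cp-asiNRL libraries and by 0.039, 0.026 and -0.055 in the WT vehicle libraries themselves while the median of all genes tested lay between -0.0065 and 0.0030 in every library. CNV cp-asiNRL replicate 3 was the highest of the 12 libraries for 33 of the 35 members and replicate 1 the second for 33. Both lay above every CNV vehicle library for 35 of 35 members, and the replicate 2 library labelled CNV cp-asiNRL did so for 6. WT cp-asiNRL replicate 1 stood above the other WT libraries, and CNV vehicle replicate 2 was the highest of its group by the median member. In bulk libraries more cells of a type and more RNA per cell cannot be told apart.

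**Figure D2:**
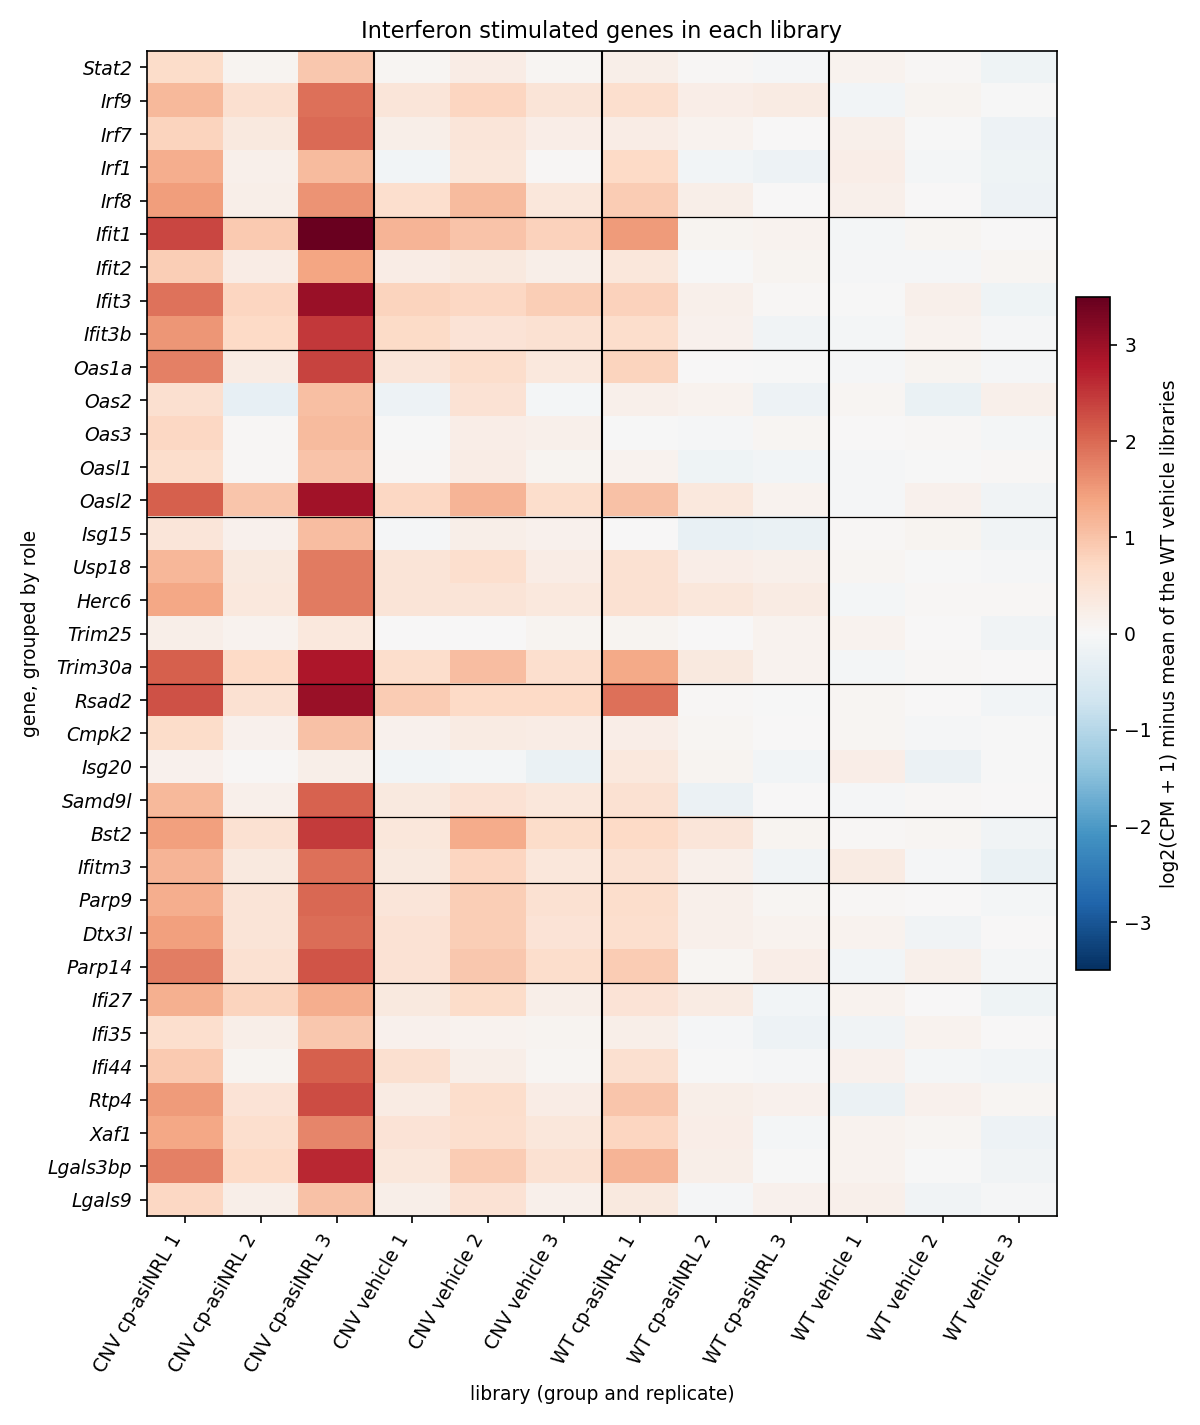
Level of the 35 interferon stimulated genes (rows, grouped by role) in the 12 libraries (columns), as log2(CPM + 1) minus the mean of the WT vehicle libraries, red for higher and blue for lower. CNV cp-asiNRL replicates 1 and 3 are red in nearly every row, the replicate 2 library labelled CNV cp-asiNRL and the 3 CNV vehicle libraries are paler, and WT cp-asiNRL replicate 1 is redder than WT cp-asiNRL replicates 2 and 3.

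The first comparison asked what cp-asiNRL did to the interferon genes of laser-injured retina. All 35 members had a higher fitted level in CNV cp-asiNRL than in CNV vehicle retina, with a median log2 change of 0.69 against 0.0011 for all genes tested and a range of 0.18 (Trim25) to 1.23 (Ifit1). No member passed an adjusted p of 0.05 in the limma fit of all 12 libraries, in which 0.0156% of genes were called higher, and the smallest adjusted p was 0.177, for Ifi27. At an unadjusted p under 0.05, 31 members were higher, beside 7.64% of genes. Limma voom also called 0 members, beside 0.0195% of genes, with 24 at an unadjusted p under 0.05 beside 6.92% of genes. Limma on the 6 CNV libraries alone called 0, as it did of all genes (0%), with 19 at an unadjusted p under 0.05 beside 3.7% of genes. The 3 CNV cp-asiNRL libraries all lay above the 3 CNV vehicle libraries for 6 members, Ifi27, Ifi35, Ifit3b, Isg20, Trim25 and Xaf1, and this held for 6.33% of genes.

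The outcome turned on 1 library. Without the replicate 2 library labelled CNV cp-asiNRL, limma called 34 of the 35 members higher, beside 8.83% of genes, with a median log2 change of 1.07 and a range of 0.24 to 1.90. Isg20 was the exception (limma adjusted p = 0.114). Limma voom with sample quality weights, which gave that library a weight of 0.266, called 27 members higher, beside 5.05% of genes. Without CNV cp-asiNRL replicate 3, in contrast, the median member change was 0.29, and without CNV vehicle replicate 2 the number of members with no overlap between the groups was 17, beside 13.3% of genes. When the replicate 2 library labelled CNV cp-asiNRL was left out it was 35, where 21.7% of genes had no overlap in this direction. In that library alone of its group, Nrl and the rod sum lay in the vehicle range. Leaving it out is thus no independent check.

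The transcription factors of the response shared this pattern. Stat2, a factor activated below the receptor, had 20.9, 14.1 and 26.01 CPM in CNV cp-asiNRL retina against 13.7, 15.8 and 13.8 CPM in CNV vehicle retina, and 15.2, 13.4 and 12.7 CPM in WT cp-asiNRL retina against 14.3, 13.4 and 11.7 CPM in WT vehicle retina. Irf9, the DNA-binding part of ISGF3, had 13.95, 9.13 and 25.2 CPM in CNV cp-asiNRL retina against 8.14, 10.4 and 8.303 CPM in CNV vehicle retina, and 9.18, 7.04 and 7.34 CPM with cp-asiNRL against 5.43, 6.36 and 5.72 CPM with vehicle in WT retina. For both genes CNV cp-asiNRL replicates 1 and 3 lay above all other libraries, while the replicate 2 library fell among the CNV vehicle values; for Irf9 alone of the pair, the WT groups did not overlap. Their log2 changes in CNV retina were 0.43 (SE 0.15, limma adjusted p = 0.246) for Stat2 and 0.68 (SE 0.23, limma adjusted p = 0.241) for Irf9. Without the replicate 2 library labelled CNV cp-asiNRL they were 0.66 (SE 0.10, limma adjusted p = 0.000966) and 1.0 (SE 0.17, limma adjusted p = 0.00157).

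Irf7, the factor that amplifies interferon alpha production, had 7.17, 5.04 and 17.8 CPM in CNV cp-asiNRL retina, against 4.51, 5.37 and 4.59 CPM in CNV vehicle retina. Irf7 levels in WT retina were 4.63, 4.19 and 3.76 CPM with cp-asiNRL against 4.39, 3.72 and 3.21 CPM with vehicle. Irf1, which responds to interferon gamma and inflammatory signals as well, had 9.01, 3.67 and 7.78 CPM in CNV cp-asiNRL retina, against 2.85, 4.45 and 3.24 CPM in CNV vehicle retina. Irf1 was the only factor of the 5 whose highest value fell in replicate 1 and not in replicate 3. Irf8, a lineage factor of microglia and other myeloid cells, had 3.83, 1.02 and 4.22 CPM in CNV cp-asiNRL retina, against 1.62, 2.799 and 1.302 CPM in CNV vehicle retina, and 2.24, 1.01 and 0.792 CPM with cp-asiNRL against 0.986, 0.774 and 0.546 CPM with vehicle in WT retina. CNV vehicle replicate 2 was the highest vehicle library for Irf8, and the replicate 2 library labelled CNV cp-asiNRL the lowest of the 6 CNV libraries. The 5 factors had log2 changes of 0.38 to 0.75, none called by limma (smallest adjusted p = 0.241). With the replicate 2 library labelled CNV cp-asiNRL left out all 5 were called higher, beside 8.83% of genes. In that fit the changes of the other 3 were 1.09 (SE 0.22, limma adjusted p = 0.00423) for Irf7, 1.07 (SE 0.21, limma adjusted p = 0.00321) for Irf1 and 0.82 (SE 0.21, limma adjusted p = 0.0158) for Irf8. In the WT libraries Irf1 was at 5.65, 2.82 and 2.603 CPM with cp-asiNRL against 3.79, 2.93 and 2.698 CPM with vehicle, so that replicate 1 alone lay above the vehicle range.

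Of the Ifit genes, Ifit1 encodes a protein that binds viral RNA without a host cap, and it had the largest fitted change of the set. Ifit1 had 12.3, 3.95 and 27.8 CPM in CNV cp-asiNRL retina against 5.004, 4.24 and 3.64 CPM in CNV vehicle retina, and 6.41, 1.84 and 1.85 CPM in WT cp-asiNRL retina against 1.51, 1.76 and 1.64 CPM in WT vehicle retina. Ifit3, which stabilises Ifit1 on its RNA in human cells, had 20.6, 8.69 and 45.6 CPM in CNV cp-asiNRL retina against 8.86, 8.51 and 9.37 CPM in CNV vehicle retina, and 9.12, 5.55 and 4.94 CPM with cp-asiNRL against 4.66, 5.48 and 4.17 CPM with vehicle in WT retina. In both genes the 3 CNV vehicle libraries lay close together and above all 3 WT vehicle libraries, and the replicate 2 library labelled CNV cp-asiNRL fell at or next to the CNV vehicle range. The log2 changes in CNV retina were 1.23 (SE 0.46, limma adjusted p = 0.252) for Ifit1 and 1.11 (SE 0.37, limma adjusted p = 0.236) for Ifit3, and 1.90 (SE 0.33, limma adjusted p = 0.00165) and 1.68 (SE 0.24, limma adjusted p = 0.000518) without that library.

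Ifit3b, the near copy of Ifit3 with the shared promoter run, had 9.54, 4.83 and 19.2 CPM in CNV cp-asiNRL retina, against 4.702, 4.02 and 4.26 CPM in CNV vehicle retina. Ifit3b levels in WT retina were 4.51, 3.02 and 2.32 CPM with cp-asiNRL against 2.44, 2.93 and 2.48 CPM with vehicle. The CNV groups did not overlap, the WT groups did, and the log2 change in CNV retina was 1.02 (SE 0.30, limma adjusted p = 0.22), or 1.46 (SE 0.21, limma adjusted p = 0.000657) without the replicate 2 library labelled CNV cp-asiNRL. Ifit2, a further RNA-binding member, had 15.9, 10.1 and 23.2 CPM in CNV cp-asiNRL retina, against 10.1, 10.8 and 9.67 CPM in CNV vehicle retina. Ifit2 levels in WT retina were 11.2, 8.21 and 9.06 CPM with cp-asiNRL against 8.04, 8.12 and 8.85 CPM with vehicle. Its log2 change in CNV retina of 0.57 (SE 0.19, limma adjusted p = 0.236) was the smallest of the 4 Ifit genes, and it was 0.85 (SE 0.13, limma adjusted p = 0.000788) without that library. In the coordinates of the deposited table (GRCm39) the 4 genes lie in a row on the plus strand of chromosome 19, from 34527961 (start of Ifit2) to 34627409 (end of Ifit1). Reads could be split between Ifit3 and Ifit3b, and Ifit1 and Ifit3b lie wholly inside the annotated span of Ifit1bl1, so the values of these genes are uncertain to that extent.

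The Oas genes encode enzymes that turn double-stranded RNA into a signal for RNA decay, and Oasl2 is a relative with ubiquitin-like repeats. Oasl2 had 14.1, 5.93 and 26.3 CPM in CNV cp-asiNRL retina against 4.89, 7.04 and 4.38 CPM in CNV vehicle retina, and 6.23, 3.59 and 2.89 CPM with cp-asiNRL against 2.47, 2.93 and 2.25 CPM with vehicle in WT retina. Oas1a had 2.75, 0.361 and 4.701 CPM in CNV cp-asiNRL retina against 0.491, 0.707 and 0.445 CPM in CNV vehicle retina, and 0.905, 0.1203 and 0.106 CPM with cp-asiNRL against 0.0773, 0.189 and 0.0854 CPM with vehicle in WT retina. Each had its 2 highest values in CNV cp-asiNRL replicates 1 and 3, and the log2 changes in CNV retina were 1.16 (SE 0.35, limma adjusted p = 0.224) for Oasl2 and 1.0 (SE 0.36, limma adjusted p = 0.246) for Oas1a, and 1.68 (SE 0.24, limma adjusted p = 0.000567) and 1.59 (SE 0.19, limma adjusted p = 0.000224) without the replicate 2 library labelled CNV cp-asiNRL. Oas2 had the smallest fitted change of the 5, with 1.58, 0.422 and 2.59 CPM in CNV cp-asiNRL retina against 0.529, 1.46 and 0.667 CPM in CNV vehicle retina, and 0.959, 0.911 and 0.545 CPM with cp-asiNRL against 0.812, 0.472 and 0.973 CPM with vehicle in WT retina. Its log2 change in CNV retina was 0.36 (SE 0.26, limma adjusted p = 0.489), and 0.72 (SE 0.18, limma adjusted p = 0.0141) without that library. The replicate 2 library labelled CNV cp-asiNRL had the lowest Oas2 level of all 12. Oas3, a further enzyme of the family, had 0.763, 0.0904 and 1.27 CPM in CNV cp-asiNRL retina, against 0.0567, 0.255 and 0.191 CPM in CNV vehicle retina. Oas3 levels in WT retina were 0.0543, 0.0344 and 0.106 CPM with cp-asiNRL against 0.0773, 0.0944 and 0.0171 CPM with vehicle. Oasl1, a relative of Oasl2, had 0.7798, 0.196 and 1.33 CPM in CNV cp-asiNRL retina, against 0.189, 0.396 and 0.238 CPM in CNV vehicle retina. Oasl1 levels in WT retina were 0.271, 0.0515 and 0.08795 CPM with cp-asiNRL against 0.135, 0.151 and 0.188 CPM with vehicle. Both rest on 1 to 92 reads per library and were highest in CNV cp-asiNRL replicates 1 and 3. Their log2 changes in CNV retina were 0.49 (SE 0.18, limma adjusted p = 0.247) for Oas3 and 0.42 (SE 0.17, limma adjusted p = 0.261) for Oasl1, and 0.78 (SE 0.10, limma adjusted p = 0.000269) and 0.68 (SE 0.11, limma adjusted p = 0.00115) without that library. Oas3 passed the filter only through the CNV cp-asiNRL libraries, so its p values here are no independent support. Oas2, Oas3 and Oas1a lie on the minus strand of chromosome 5 (GRCm39) between 120868398 and 121045605, and Oas1a has close relatives in this cluster, between which reads could be split.

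The ISG15 system tags proteins with a ubiquitin-like modifier. Herc6, the ligase that attaches the modifier in mouse cells, had 21.6, 10.5 and 30.4 CPM in CNV cp-asiNRL retina against 11.2, 11.1 and 10.5 CPM in CNV vehicle retina, and 11.8, 10.6 and 9.78 CPM in WT cp-asiNRL retina against 7.44, 8.12 and 8.06 CPM in WT vehicle retina. Trim30a, which dampens inflammatory signalling, had 12.7, 4.19 and 21.7 CPM in CNV cp-asiNRL retina against 3.85, 5.73 and 3.81 CPM in CNV vehicle retina, and 6.91, 3.04 and 2.43 CPM with cp-asiNRL against 2.05, 2.28 and 2.203 CPM with vehicle in WT retina. Herc6 and Trim30a were the members of this group whose 2 WT groups did not overlap, together with Usp18, which removes the modifier and blocks the receptor. In CNV retina the log2 changes were 0.76 (SE 0.23, limma adjusted p = 0.229) for Herc6 and 1.12 (SE 0.39, limma adjusted p = 0.246) for Trim30a, and Herc6 had the smallest limma adjusted p of all members without the replicate 2 library labelled CNV cp-asiNRL (3.36e-05, log2 change 1.16). That of Trim30a was 1.71 (SE 0.26, limma adjusted p = 0.000909) without this library.

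Trim25, a ligase that activates the RNA sensor RIG-I, had 17.1, 15.8 and 19.1 CPM in CNV cp-asiNRL retina, against 14.8, 14.8 and 15.7 CPM in CNV vehicle retina. Trim25 levels in WT retina were 15.7, 14.6 and 15.8 CPM with cp-asiNRL against 15.9, 14.6 and 13.2 CPM with vehicle. The CNV groups did not overlap, yet the log2 change of 0.18 (SE 0.077, limma adjusted p = 0.276) was the smallest of the set, and it was 0.24 (SE 0.078, limma adjusted p = 0.0405) with the replicate 2 library labelled CNV cp-asiNRL left out. Usp18 had 8.59, 4.37 and 14.1 CPM in CNV cp-asiNRL retina, against 4.83, 5.39 and 4.096 CPM in CNV vehicle retina. Usp18 levels in WT retina were 5.23, 4.02 and 3.78 CPM with cp-asiNRL against 3.48, 3.19 and 3.14 CPM with vehicle. Isg15, the modifier itself, had 0.796, 0.512 and 1.85 CPM in CNV cp-asiNRL retina, against 0.302, 0.565 and 0.492 CPM in CNV vehicle retina. Isg15 levels in WT retina were 0.362, 0.1203 and 0.158 CPM with cp-asiNRL against 0.387, 0.434 and 0.239 CPM with vehicle, and the 12 libraries held 7 to 128 reads of it. Both had their 2 highest values in CNV cp-asiNRL replicates 1 and 3. Their log2 changes in CNV retina were 0.68 (SE 0.25, limma adjusted p = 0.25) for Usp18 and 0.45 (SE 0.17, limma adjusted p = 0.252) for Isg15, and 1.07 (SE 0.16, limma adjusted p = 0.00069) and 0.64 (SE 0.15, limma adjusted p = 0.00791) with that library left out. The annotated span of Gm44148 overlaps 15743 of the 25012 bases of Usp18, and it had 0.907 times the reads of Usp18. That of Gm46878 overlaps Isg15 by 98 bases, and it had 12.6 times the reads of Isg15. The values of Usp18 and Isg15 are uncertain to that extent.

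Rsad2 encodes viperin, an enzyme that makes a chain-terminating nucleotide, and lies beside Cmpk2, a nucleotide kinase gene, on chromosome 12. Rsad2 had 7.72, 1.73 and 14.1 CPM in CNV cp-asiNRL retina against 2.49, 2.06 and 2.03 CPM in CNV vehicle retina, and 6.15, 0.928 and 0.844 CPM in WT cp-asiNRL retina against 0.966, 0.906 and 0.751 CPM in WT vehicle retina. Its level in WT cp-asiNRL replicate 1 was above that of every vehicle library, and in the replicate 2 library labelled CNV cp-asiNRL it was below all 3 CNV vehicle libraries. Cmpk2 varied less, with 11.6, 8.01 and 15.5 CPM in CNV cp-asiNRL retina against 8.04, 8.96 and 8.83 CPM in CNV vehicle retina, and 8.51, 7.51 and 7.25 CPM with cp-asiNRL against 7.497, 6.89 and 7.07 CPM with vehicle in WT retina. Samd9l, a restriction factor that represses protein synthesis, had 7.57, 3.403 and 15.4 CPM in CNV cp-asiNRL retina, against 3.95, 4.57 and 4.13 CPM in CNV vehicle retina. Samd9l levels in WT retina were 4.67, 2.39 and 2.96 CPM with cp-asiNRL against 2.78, 3.02 and 2.92 CPM with vehicle. For Cmpk2 and Samd9l all 3 CNV vehicle libraries lay above all 3 WT vehicle libraries. The log2 changes in CNV retina were 1.16 (SE 0.51, limma adjusted p = 0.295) for Rsad2, 0.36 (SE 0.15, limma adjusted p = 0.276) for Cmpk2 and 0.71 (SE 0.32, limma adjusted p = 0.297) for Samd9l. With the replicate 2 library labelled CNV cp-asiNRL left out they were 1.85 (SE 0.39, limma adjusted p = 0.00503) for Rsad2, 0.59 (SE 0.10, limma adjusted p = 0.00189) for Cmpk2 and 1.19 (SE 0.21, limma adjusted p = 0.00199) for Samd9l. Isg20, an exonuclease gene, had 0.863, 0.723 and 0.926 CPM in CNV cp-asiNRL retina, against 0.567, 0.594 and 0.445 CPM in CNV vehicle retina. Isg20 levels in WT retina were 1.16, 0.7902 and 0.563 CPM with cp-asiNRL against 0.966, 0.453 and 0.666 CPM with vehicle. The CNV groups did not overlap for Isg20, with a log2 change of 0.26 (SE 0.12, limma adjusted p = 0.308), and 0.30 (SE 0.13, limma adjusted p = 0.114) with that library left out.

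The plot of levels by group shows 12 of these genes with every library, and CNV cp-asiNRL replicate 3 is the highest point in each, with Trim25 the gene whose groups lie closest.

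**Figure D3:**
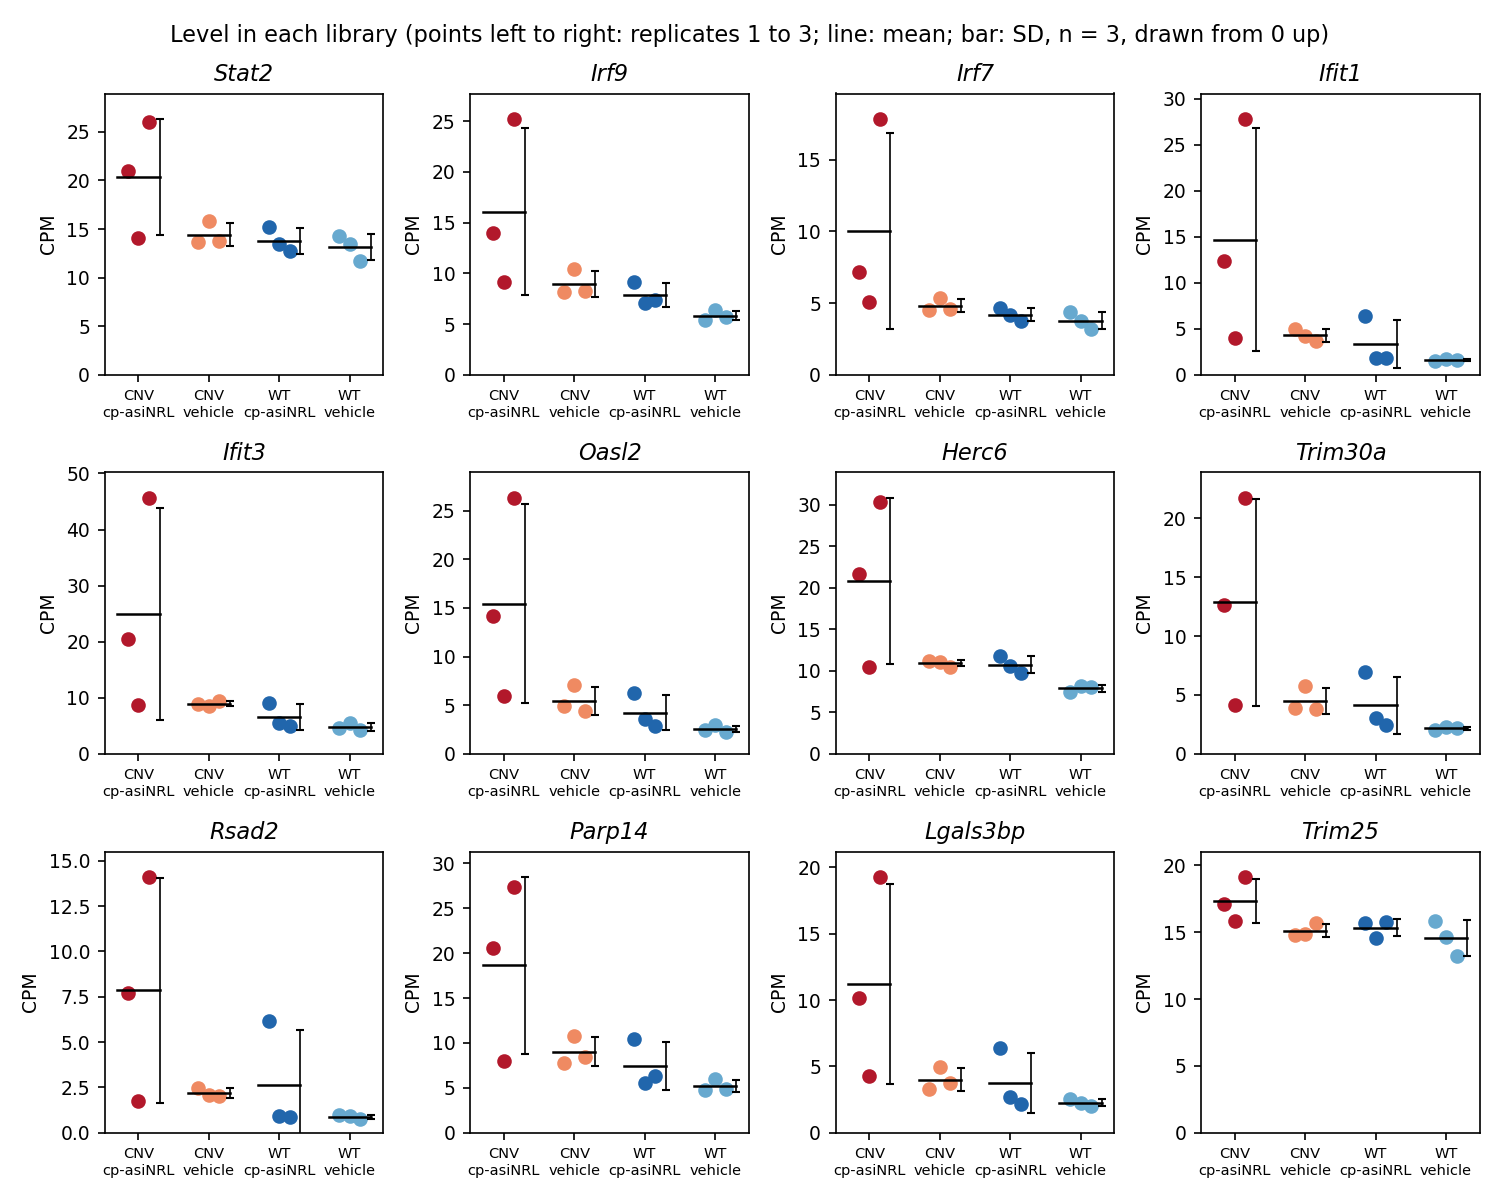
Level in CPM (y axis, from 0) of 12 interferon stimulated genes in each library of the 4 groups; points are replicates 1 to 3 from left to right, the line is the group mean and the bar its SD (n = 3), cut at 0. CNV cp-asiNRL replicates 1 and 3 stand above the other libraries in each panel, and the replicate 2 library of that group lies near the CNV vehicle points.

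Bst2, or tetherin, holds budding virus at the cell surface, and Ifitm3 blocks fusion of virus with the cell. Bst2 had 2.74, 0.979 and 6.51 CPM in CNV cp-asiNRL retina against 0.812, 2.38 and 1.16 CPM in CNV vehicle retina, and 1.23, 0.842 and 0.457 CPM in WT cp-asiNRL retina against 0.406, 0.453 and 0.273 CPM in WT vehicle retina. Ifitm3 had 2.57, 0.964 and 4.904 CPM in CNV cp-asiNRL retina, against 0.963, 1.63 and 1.05 CPM in CNV vehicle retina, and 1.27, 0.773 and 0.422 CPM with cp-asiNRL against 0.908, 0.5097 and 0.324 CPM with vehicle in WT retina. Both were highest in CNV cp-asiNRL replicate 3, and CNV vehicle replicate 2 was the highest vehicle library for both. Their log2 changes in CNV retina were 0.69 (SE 0.34, limma adjusted p = 0.333) and 0.66 (SE 0.29, limma adjusted p = 0.291), and without the replicate 2 library labelled CNV cp-asiNRL they were 1.17 (SE 0.25, limma adjusted p = 0.0062) and 1.07 (SE 0.21, limma adjusted p = 0.00347).

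Parp9 and Dtx3l encode a ubiquitin ligase pair read in opposite directions from neighbouring starts, and Parp14 is an ADP-ribosyltransferase beside them on chromosome 16. Parp14 had 20.6, 7.996 and 27.4 CPM in CNV cp-asiNRL retina against 7.78, 10.8 and 8.48 CPM in CNV vehicle retina, and 10.5, 5.51 and 6.32 CPM with cp-asiNRL against 4.81, 5.97 and 4.85 CPM with vehicle in WT retina. Parp9 had 11.8, 6.16 and 20.2 CPM in CNV cp-asiNRL retina, against 6.04, 8.64 and 6.56 CPM in CNV vehicle retina. Parp9 levels in WT retina were 7.04, 4.93 and 4.52 CPM with cp-asiNRL against 4.41, 4.32 and 4.06 CPM with vehicle. Dtx3l had 7.997, 3.58 and 11.98 CPM in CNV cp-asiNRL retina, against 3.701, 5.08 and 3.67 CPM in CNV vehicle retina. Dtx3l levels in WT retina were 4.04, 2.75 and 2.603 CPM with cp-asiNRL against 2.61, 2.06 and 2.34 CPM with vehicle. In all 3 genes CNV cp-asiNRL replicate 3 was highest, replicate 1 second, then CNV vehicle replicate 2 and WT cp-asiNRL replicate 1. Their log2 changes were 0.83 for Parp14, 0.64 for Parp9 and 0.67 for Dtx3l, with limma adjusted p of 0.251 to 0.28, and 1.32 (SE 0.19, limma adjusted p = 0.000529) for Parp14, 1.04 (SE 0.18, limma adjusted p = 0.00189) for Parp9 and 1.08 (SE 0.17, limma adjusted p = 0.000863) for Dtx3l without the replicate 2 library labelled CNV cp-asiNRL. Parp9 and Dtx3l overlap by 558 bases on opposite strands.

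Ifi27, a small mitochondrial protein gene, had 5.53, 3.72 and 5.67 CPM in CNV cp-asiNRL retina, against 2.47, 3.32 and 2.18 CPM in CNV vehicle retina. Ifi27 levels in WT retina were 2.88, 2.35 and 1.601 CPM with cp-asiNRL against 2.03, 1.79 and 1.503 CPM with vehicle. It was 1 of the 6 members for which the replicate 2 library labelled CNV cp-asiNRL also lay above every CNV vehicle library, and its log2 change of 0.70 (SE 0.16, limma adjusted p = 0.177) had the smallest p of the set, against 0.86 (SE 0.15, limma adjusted p = 0.00194) without this library; the annotated span of Ifi27l2a covers the whole gene. Ifi35 had 4.41, 3.13 and 5.95 CPM in CNV cp-asiNRL retina, against 3.02, 2.88 and 2.86 CPM in CNV vehicle retina, again without overlap, and 3.13, 2.51 and 2.199 CPM with cp-asiNRL against 2.299, 2.89 and 2.61 CPM with vehicle in WT retina. Its log2 change in CNV retina was 0.46 (SE 0.15, limma adjusted p = 0.233), or 0.65 (SE 0.13, limma adjusted p = 0.00339) without this library, and the WT groups were interleaved. Lgals3bp, a secreted glycoprotein gene, had 10.1, 4.26 and 19.3 CPM in CNV cp-asiNRL retina, against 3.29, 4.99 and 3.73 CPM in CNV vehicle retina. Lgals3bp levels in WT retina were 6.35, 2.73 and 2.199 CPM with cp-asiNRL against 2.53, 2.23 and 1.998 CPM with vehicle. Its log2 change in CNV retina was 1.10 (SE 0.37, limma adjusted p = 0.236), and 1.6 (SE 0.27, limma adjusted p = 0.0016) without the replicate 2 library labelled CNV cp-asiNRL.

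Xaf1, a proapoptotic gene, had 4.96, 2.56 and 6.77 CPM in CNV cp-asiNRL retina, against 2.304, 2.56 and 2.11 CPM in CNV vehicle retina. Xaf1 levels in WT retina were 2.95, 1.75 and 1.27 CPM with cp-asiNRL against 1.57, 1.45 and 1.08 CPM with vehicle. Rtp4, a gene for a transporter of receptor proteins, had 2.95, 0.934 and 5.87 CPM in CNV cp-asiNRL retina, against 0.718, 1.15 and 0.667 CPM in CNV vehicle retina. Rtp4 levels in WT retina were 1.74, 0.618 and 0.563 CPM with cp-asiNRL against 0.213, 0.548 and 0.461 CPM with vehicle. Ifi44 had 1.44, 0.392 and 4.54 CPM in CNV cp-asiNRL retina, against 0.906, 0.481 and 0.349 CPM in CNV vehicle retina. Ifi44 levels in WT retina were 0.905, 0.275 and 0.246 CPM with cp-asiNRL against 0.444, 0.227 and 0.222 CPM with vehicle. Lgals9, the gene of the lectin galectin-9, had 1.84, 0.964 and 2.503 CPM in CNV cp-asiNRL retina, against 0.963, 1.43 and 0.921 CPM in CNV vehicle retina. Lgals9 levels in WT retina were 1.16, 0.653 and 0.8795 CPM with cp-asiNRL against 0.928, 0.566 and 0.649 CPM with vehicle. In these 4 genes CNV cp-asiNRL replicates 1 and 3 lay above every CNV vehicle library, and for Xaf1 the replicate 2 library was level with the highest of them, above it by less than the printed digits. The log2 changes in CNV retina were 0.72 (SE 0.23, limma adjusted p = 0.231) for Xaf1, 1.03 (SE 0.33, limma adjusted p = 0.231) for Rtp4, 0.77 (SE 0.34, limma adjusted p = 0.291) for Ifi44 and 0.36 (SE 0.17, limma adjusted p = 0.313) for Lgals9. When the replicate 2 library labelled CNV cp-asiNRL was left out they were 1.04 (SE 0.18, limma adjusted p = 0.00164), 1.51 (SE 0.23, limma adjusted p = 0.000727), 1.24 (SE 0.25, limma adjusted p = 0.00398) and 0.59 (SE 0.14, limma adjusted p = 0.00802), in the same order.

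The second comparison asked what the laser model did under vehicle. In CNV vehicle retina 34 of the 35 members had a higher fitted level than in WT vehicle retina, with a median log2 change of 0.42 against -0.00085 for all genes. The 3 CNV vehicle libraries all lay above the 3 WT vehicle libraries for 25 of the 35 members, whereas this held for 7.52% of all genes. Leaving out any 1 of these 6 libraries left 25 to 29 such members, beside 10.9% to 14% of genes, and 17 of the 24 members that overlap no other gene were among the 25. All 4 Ifit genes, all 3 of the Parp9, Dtx3l and Parp14 group, both Bst2 and Ifitm3, and Irf7, Irf8 and Irf9 were among them; Stat2, Irf1, Oas2, Isg15 and Trim25 were not. Isg20 was the 1 member with a lower fitted level.

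Whether these differences passed a test depended on the libraries that set the spread. In the limma fit of all 12 libraries no member and no gene was called, with 10 members higher at an unadjusted p under 0.05, beside 3.96% of genes, and limma voom also called 0 members and 0 genes, with 1 member at an unadjusted p under 0.05 beside 3.67% of genes. Its form with quality weights called 0 members, beside 0.101% of genes, with 14 at an unadjusted p under 0.05 beside 5.76% of genes. Without the replicate 2 library labelled CNV cp-asiNRL, which is in neither group, 0 members were called, beside 0.192% of genes, and the smallest adjusted p of a member was 0.0876 (Herc6). In the limma fit of the 6 vehicle libraries alone, 16 of the 34 members tested were called higher, beside 0.564% of genes, and none lower. These were Ifit1, Ifit3, Rsad2, Oasl2, Trim30a, Parp14, Ifit3b, Oas1a, Parp9, Irf9, Herc6, Dtx3l, Lgals3bp, Bst2, Xaf1 and Irf8, with log2 changes of 0.42 to 1.0. Ifit1 had a log2 change of 1.0 (SE 0.11, limma adjusted p = 0.000378) in that fit, Ifit3 0.79 (SE 0.10, limma adjusted p = 0.0011), Rsad2 0.77 (SE 0.10, limma adjusted p = 0.00122) and Oasl2 0.84 (SE 0.13, limma adjusted p = 0.00727). In the 12-library fit the same 4 changes were 1.0 (SE 0.46, limma adjusted p = 0.649), 0.79 (SE 0.37, limma adjusted p = 0.655), 0.77 (SE 0.51, limma adjusted p = 0.721) and 0.84 (SE 0.35, limma adjusted p = 0.627). Leaving out 1 of the 6 libraries changed the number to between 3 and 18. There were 3 members called without WT vehicle replicate 1 (beside 0.0942% of genes) or 3 (0.108%), 5 without WT vehicle replicate 2 (0.107%) and 18 without CNV vehicle replicate 1 (1.83%).

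**Figure D4:**
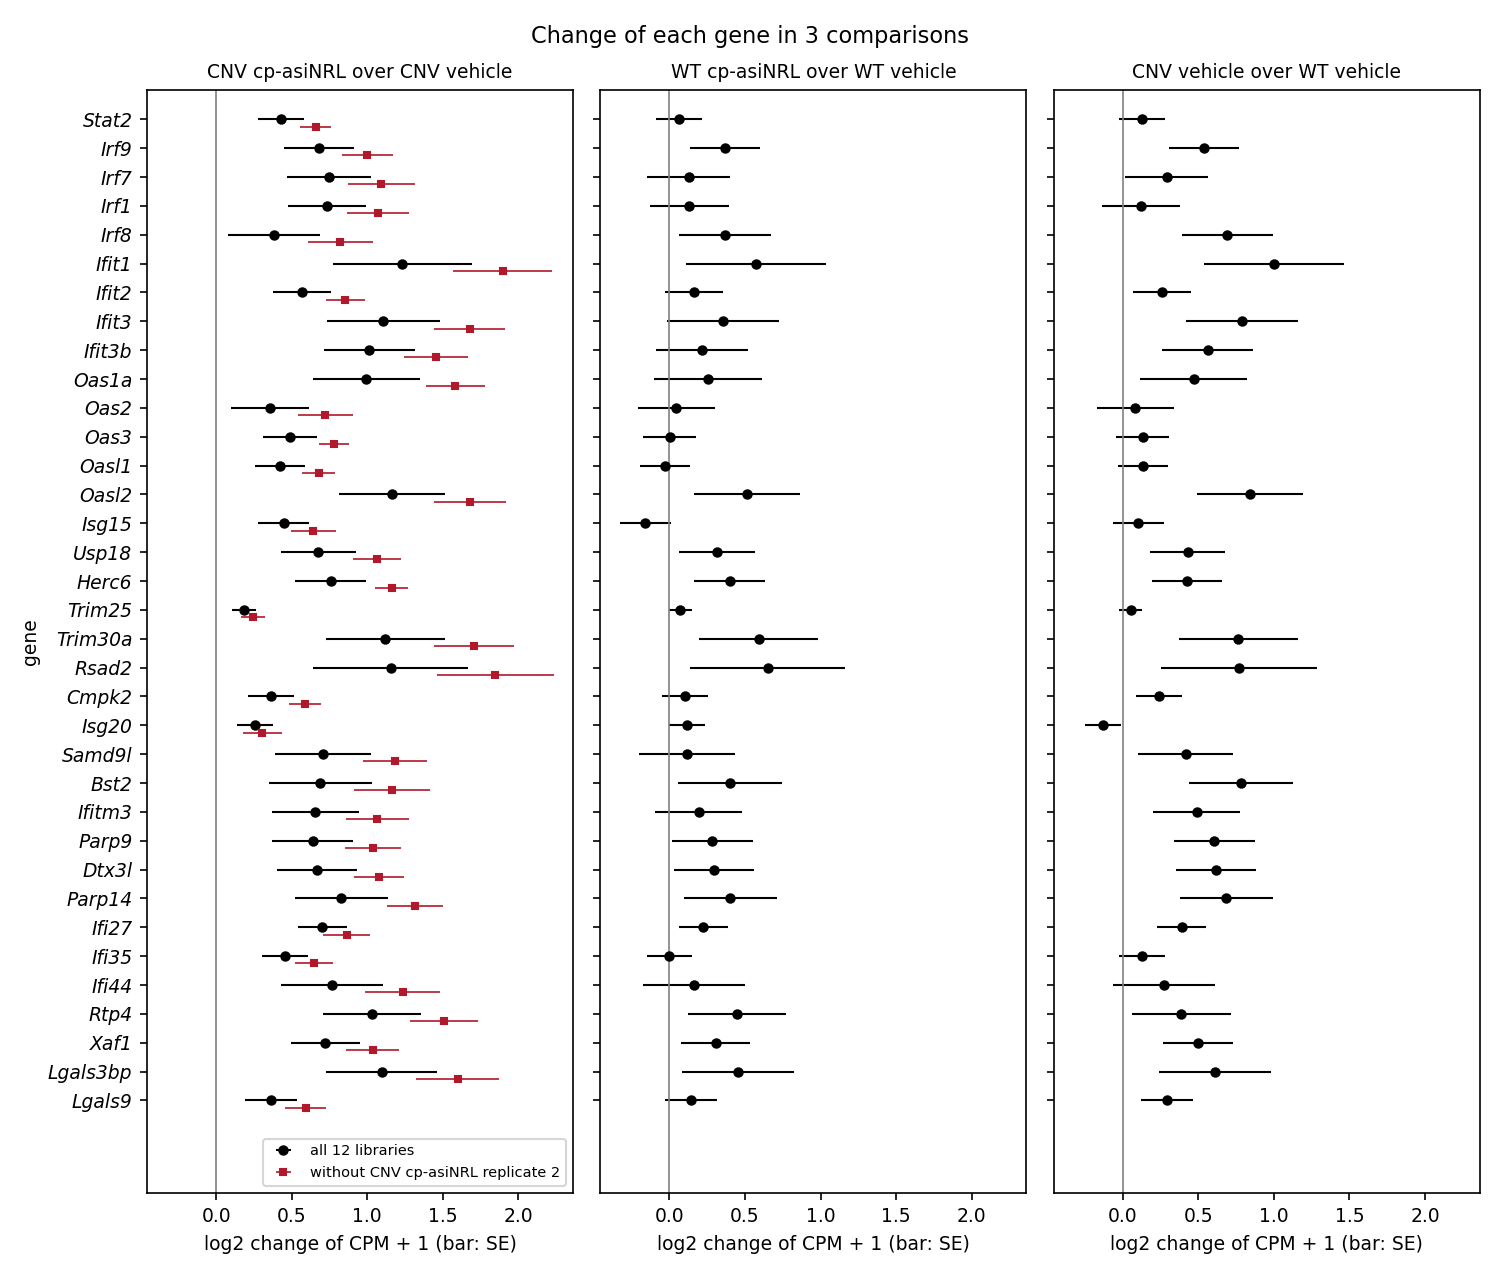
Fitted log2 change of CPM + 1 (x axis, bars are the standard error) of each of the 35 genes in 3 comparisons; black points are from limma on all 12 libraries and red squares, in the first panel only, are without the replicate 2 library labelled CNV cp-asiNRL. All points of the first panel lie right of 0, the red squares lie right of the black points, and the changes in WT retina, in the middle panel, are the smallest of the 3 for 31 genes.

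The third comparison set cp-asiNRL against vehicle in retina without laser. The median log2 change of the members was 0.23 against 0.0015 for all genes, and 33 of the 35 had a higher fitted level in WT cp-asiNRL retina; Isg15 and Oasl1 had a lower one. Limma on all 12 libraries called 0 members, beside 0.0468% of genes called higher, with 0 at an unadjusted p under 0.05 beside 5.56% of genes. Limma voom called 0 beside 0.0117% of genes, with 0 at an unadjusted p under 0.05 beside 5.18%. Its form with quality weights called 0 beside 2.06% of genes, with 1 at an unadjusted p under 0.05 beside 9.65%. Leaving aside the replicate 2 library labelled CNV cp-asiNRL, 1 member was called, Herc6 at 0.40 (limma adjusted p = 0.039), beside 0.695% of genes. The groups did not overlap for 8 members, Bst2, Herc6, Ifit1, Irf9, Parp9, Rtp4, Trim30a and Usp18, all higher with cp-asiNRL, and this held for 11% of genes.

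In the limma fit of the 6 WT libraries alone, 4 of 32 members were called higher, beside 2.55% of genes. These were Herc6 at 0.39 (SE 0.079, limma adjusted p = 0.00509), Irf9 at 0.36 (SE 0.095, limma adjusted p = 0.0226), Bst2 at 0.40 (SE 0.11, limma adjusted p = 0.0352) and Oasl2 at 0.50 (SE 0.16, limma adjusted p = 0.0466). Single libraries moved this count: 1 member was called without WT cp-asiNRL replicate 1 (beside 2.09% of genes), WT vehicle replicate 1 (0.669%) or WT vehicle replicate 3 (3.29%), 8 without WT cp-asiNRL replicate 2 (1.37%) and 16 without WT cp-asiNRL replicate 3 (2.57%). Without WT cp-asiNRL replicate 1 the median member change was 0.059, and without WT cp-asiNRL replicate 3 it was 0.38. WT cp-asiNRL replicate 1 lay above every WT vehicle library for 31 members, replicate 2 for 17 and replicate 3 for 11.

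Between the cp-asiNRL groups, the members were higher in CNV than in WT retina by a median log2 of 0.88, with all 35 fitted changes above 0. Limma on all 12 libraries called 0 of them and no gene (0%), with 32 members at an unadjusted p under 0.05 beside 9.43% of genes. Limma voom called 0, with 31 at an unadjusted p under 0.05 beside 8.55% of genes, and limma on the 6 libraries of these groups called 0, with 28 beside 7.22%. With quality weights 32 members were called, beside 9.43% of genes. The groups did not overlap for 6 members, beside 8.81% of genes. With the replicate 2 library labelled CNV cp-asiNRL left out, limma called 33 members, beside 9.86% of genes, and the groups did not overlap for 34 members, beside 26.3% of genes; without WT cp-asiNRL replicate 1 they did not overlap for 31, beside 16.6%. The median was 0.53 without CNV cp-asiNRL replicate 3.

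The difference between the cp-asiNRL effects, CNV minus WT, asks whether the response depended on the laser model. Its median over the members was 0.46, all 35 values were above 0, and limma called 0 members and 0 genes (0%), with 2 members at an unadjusted p under 0.05 beside 3.16% of genes. Limma voom also called 0, with 1 beside 2.82% of genes, and with quality weights 0 were called, with 12 beside 5.83%. The median was 0.78 without the replicate 2 library labelled CNV cp-asiNRL and 0.11 without CNV cp-asiNRL replicate 3. Without the replicate 2 library 1 member was called, Oas3 at 0.78 (SE 0.13, limma adjusted p = 0.0481), beside 0.00785% of genes higher, and Oas3 passed the filter only through this group. A difference of the cp-asiNRL effect between CNV and WT retina was thus not shown for the set. The comparisons share libraries, so their values are given side by side and are not counted as repeats of each other.

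The rest of the pathway was read from lists of ligands, receptors, sensors, feedback genes and interferon gamma targets. Of 20 interferon genes, 19 did not pass the filter on low values. Ifnb1, the first interferon made by most infected cells, had 0, 1 and 13 reads in CNV cp-asiNRL retina, 0 in each CNV vehicle and WT cp-asiNRL library, and 0, 0 and 1 in WT vehicle retina. Ifna4 had 1, 1 and 10 reads in CNV cp-asiNRL retina, against 0, 0 and 1 in CNV vehicle retina, and 0 in each WT library. Ifnk, the 1 ligand that passed, stayed at 13 to 35 reads. It lies wholly inside the annotated span of Mob3b, which had 81.4 times its reads, so its own level is uncertain. For Ifnb1 and Ifna4 the library with the most reads was CNV cp-asiNRL replicate 3, also the highest for 33 of the 35 members, and Ifng had at most 2 reads in any library.

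The list of receptors spans several interferon types, and its receptor-linked kinases are Jak1, Jak2 and Tyk2. Jak1 and Jak2 had log2 changes of -0.086 (SE 0.057, limma adjusted p = 0.451) and -0.036 (SE 0.057, limma adjusted p = 0.775) in CNV cp-asiNRL over CNV vehicle retina. Tyk2 had 837, 936 and 1121 reads in CNV cp-asiNRL retina, against 722, 1061 and 951 in CNV vehicle retina. Over all 9 receptors and kinases limma on all 12 libraries called none in any comparison, and none was higher or lower at an unadjusted p under 0.05 in CNV cp-asiNRL over CNV vehicle retina. Leaving out the replicate 2 library, limma called Ifnar2 higher and Ifngr1 lower in that comparison, beside 8.83% of genes higher and 8.67% lower.

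Of the 16 RNA and DNA sensors and their adaptors, none was called with all 12 libraries; 5 were higher and 2 lower at an unadjusted p under 0.05 in CNV cp-asiNRL against CNV vehicle retina, beside 7.64% of genes higher and 8.41% lower. Once the replicate 2 library was left out, limma called 7 higher, Ifih1, Zbp1, Ddx58, Tlr3, Dhx58, Eif2ak2 and Tlr7, beside 8.83% of genes. Mavs and Irf3 were called lower in that fit, beside 8.67% of genes. Eif2ak2, the kinase PKR, had 35.7, 30.7 and 48.7 CPM in CNV cp-asiNRL retina, against 28.8, 31.2 and 30.6 CPM in CNV vehicle retina. Ifih1, the sensor MDA5, which was chosen after its values were seen, had 14.6, 7.27 and 23.8 CPM in CNV cp-asiNRL retina, against 6.93, 7.92 and 6.22 CPM in CNV vehicle retina. In both, CNV cp-asiNRL replicates 1 and 3 lay above every vehicle library. Irf3, the factor that acts before interferon is made, had 20.3, 24.02 and 20.2 CPM in CNV cp-asiNRL retina, against 24.5, 24.5 and 26.9 CPM in CNV vehicle retina, and a log2 change of -0.23 (SE 0.069, limma adjusted p = 0.225). Tbk1, the kinase that activates Irf3, had a log2 change of -0.018 (SE 0.045, limma adjusted p = 0.868).

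None of the 5 feedback genes was called with all libraries, and Socs3, a brake on Jak kinases, had a log2 change of 0.90 (SE 0.44, limma adjusted p = 0.326) with CNV vehicle replicate 2 above the other CNV vehicle libraries. Socs3 was called higher in CNV cp-asiNRL over CNV vehicle retina without the replicate 2 library, beside 8.83% of genes. Pias1 and Ptpn2 were called lower in that fit, beside 8.67% of genes. Of 9 genes known for their response to interferon gamma, 8 were tested and none called with all libraries, with 6 higher at an unadjusted p under 0.05 in CNV cp-asiNRL against CNV vehicle retina, beside 7.64% of genes. With the replicate 2 library left out 7 of the 8 were called higher, beside 8.83% of genes, and Ciita was not. Nlrc5, an activator of antigen presentation genes, had 8.71, 2.05 and 13.4 CPM in CNV cp-asiNRL retina, against 1.96, 4.27 and 2.05 CPM in CNV vehicle retina. Gbp3, a GTPase of host defence, had 6.603, 4.07 and 15.02 CPM in CNV cp-asiNRL retina, against 3.06, 3.41 and 2.99 CPM in CNV vehicle retina. Ciita, which drives class II antigen presentation, had 15.9, 15.8 and 15.03 CPM in CNV cp-asiNRL retina, against 13.3, 15.4 and 15.2 CPM in CNV vehicle retina, without the pattern of the others.

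The summed markers of microglia and macrophages, of monocytes and neutrophils and of reactive glia were high in the libraries where the members were high. The 12 microglia and macrophage markers summed to 120, 70.3 and 131 CPM in CNV cp-asiNRL retina and to 66.9, 103 and 70.7 CPM in CNV vehicle retina. They summed to 82.8, 60.9 and 59.4 CPM in WT cp-asiNRL retina and to 54.6, 58.4 and 56.0 CPM in WT vehicle retina. The 6 monocyte and neutrophil markers summed to 41.3, 2.56 and 15.6 CPM in CNV cp-asiNRL retina against 1.85, 24.0 and 3.06 CPM in CNV vehicle retina, and to 21.8, 1.41 and 0.862 CPM with cp-asiNRL against 0.599, 1.11 and 0.802 CPM with vehicle in WT retina. The libraries high in these markers were CNV cp-asiNRL replicates 1 and 3, CNV vehicle replicate 2 and WT cp-asiNRL replicate 1. Lyz2, a gene shared by monocytes, macrophages and neutrophils, made up most of the second sum, while S100a8 and S100a9, defining neutrophil genes, did not exceed 0.099 CPM. The 2 orders were not the same: the monocyte and neutrophil sum was highest in CNV cp-asiNRL replicate 1, and the interferon genes in replicate 3.

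T and NK cell markers summed to 1.05, 0.662 and 1.66 CPM in CNV cp-asiNRL retina against 0.529, 0.509 and 0.445 CPM in CNV vehicle retina, with Cd3d, Nkg7 and Gzmb at 0 in some libraries of both groups. In CNV cp-asiNRL replicate 3, Cd3g had 17 reads, Ncr1 12, Nkg7 10 and Gzmb 7. Each had 6 reads or fewer in every other library, and none of them was tested. The plasmacytoid dendritic cell pair, Siglech and Ccr9, summed to 37.1, 42.0 and 33.5 CPM in CNV cp-asiNRL retina, against 39.0, 36.7 and 36.0 CPM in CNV vehicle retina. This sum lacked the pattern of the members, but it was mostly Ccr9, with 2136, 2715 and 2210 reads in CNV cp-asiNRL retina. Ccr9 also had 1917, 1967 and 2417 reads in WT vehicle retina. Siglech had 97, 76 and 108 reads in CNV cp-asiNRL retina, against 56, 44 and 101 in CNV vehicle retina. Whether the pair reflects plasmacytoid dendritic cells in this tissue was not tested. Reactive glia markers summed to 206, 92.8 and 269 CPM in CNV cp-asiNRL retina against 79.0, 202 and 84.1 CPM in CNV vehicle retina, and to 124, 81.1 and 76.3 CPM with cp-asiNRL against 50.9, 47.9 and 52.0 CPM with vehicle in WT retina. Fgf2 had the most reads of this list in every library, with 5212, 3692 and 9435 in CNV cp-asiNRL retina. It had 2447, 7936 and 3039 reads in CNV vehicle retina, and which cells made it was not tested. Lcn2 was the 1 marker of this list with a lower fitted level in CNV cp-asiNRL than in CNV vehicle retina (log2 change -0.50). It had 102, 35 and 79 reads against 52, 301 and 89. The 4 rod markers summed to 3185, 4625 and 2691 CPM in CNV cp-asiNRL retina, against 4535, 3922 and 4724 CPM in CNV vehicle retina, lowest where the interferon genes were highest. Müller glia, endothelium and pigment epithelium markers had median log2 changes of 0.085, 0.044 and -0.22 in the same comparison, with none called. No marker of any list was called by limma in this comparison with all 12 libraries. With the replicate 2 library left out, 8.83% of genes were called higher. Among these were 7 of 12 microglia and macrophage markers and 4 of 6 reactive glia markers. Also among them were 2 of 4 Müller glia markers and 1 of 4 endothelium markers. Both T and NK cell markers tested, Cd8a and Cd4, were called higher as well, at 7 to 33 reads in each of the 12 libraries. All 4 rod markers, 1 Müller glia marker and 1 pigment epithelium marker were called lower, beside 8.67% of genes. The part of these cells in the interferon result was not tested.

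**Figure D5:**
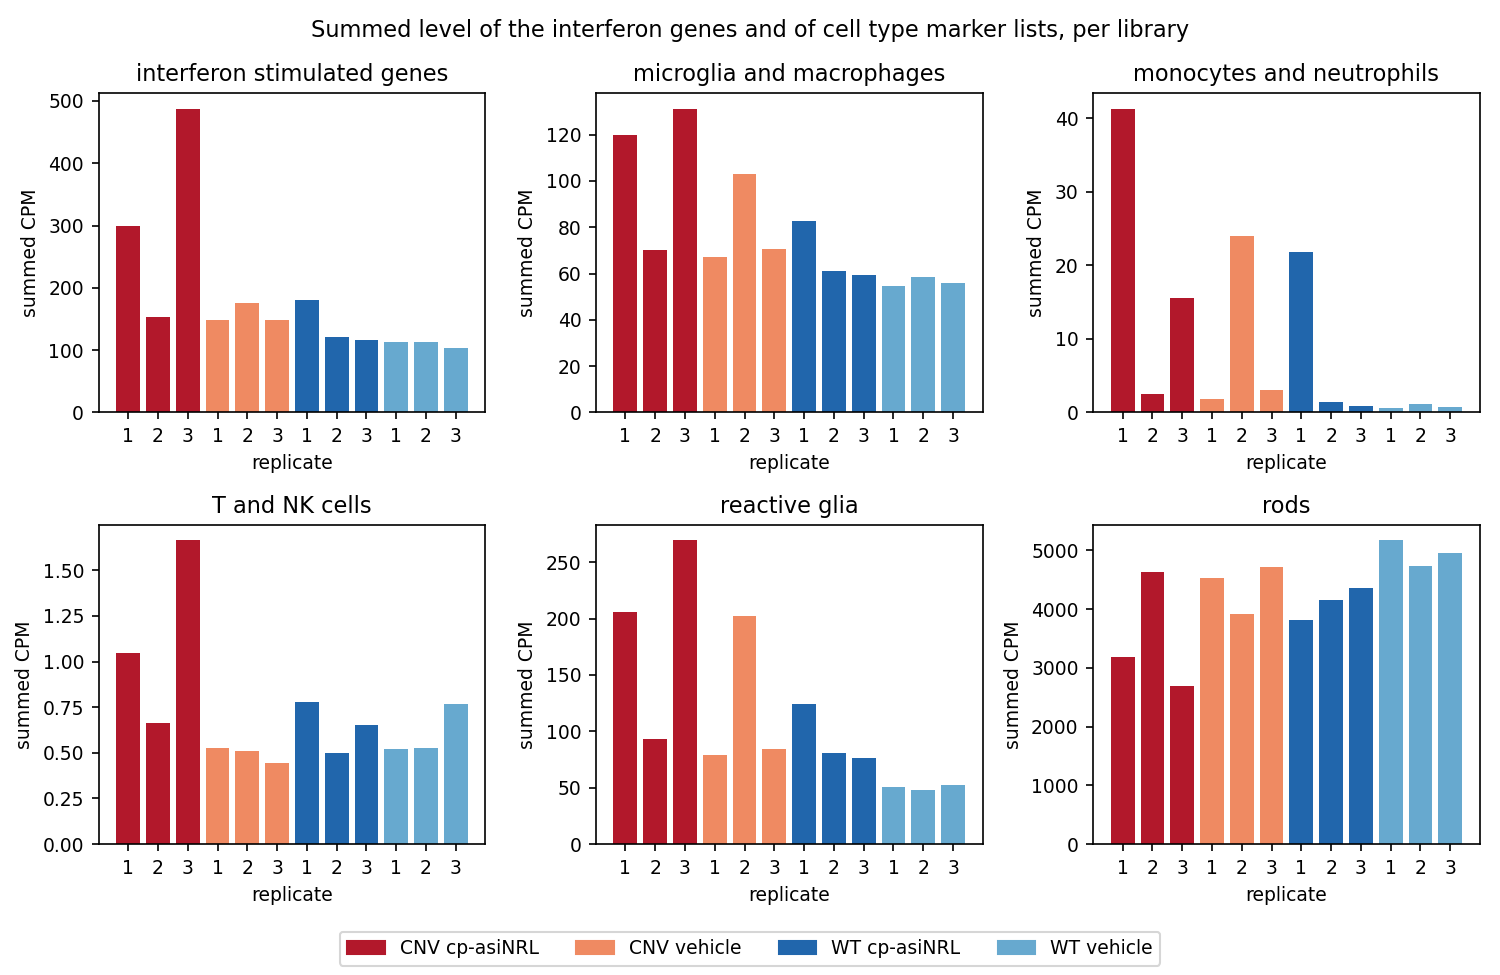
Summed CPM (y axis) of the interferon stimulated genes and of 5 marker lists in each library (x axis, replicates 1 to 3 of each group). The interferon sum is highest in CNV cp-asiNRL replicate 3 at 488 CPM and second in replicate 1 at 299 CPM, the microglia and reactive glia sums are high in the same 2 libraries and in CNV vehicle replicate 2, and the rod sum is lowest in CNV cp-asiNRL replicate 3.

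Members with and without the promoter letters were set side by side. The 12 with a match had a median log2 change of 0.84 in CNV cp-asiNRL over CNV vehicle, and the 17 without had 0.68; in CNV vehicle over WT vehicle the medians were 0.52 and 0.29. No test was made of this split, and both sets held genes with large and small changes, such as Oasl2 without and Lgals9 with a match.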

How the data were processed

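RNA of 12 mouse retina libraries (TruSeq Stranded mRNA, per the labels' protocols) was analysed in 4 groups of 3. Per the submitters' processing notes, HISAT2 2.1.0 and featureCounts 1.6.0 were used and mm10 is named, whereas the coordinates in the deposited table match GRCm39. The authors deposited one table of a signal per gene, labelled FPKM in its header; its values are reads divided by the annotated gene span, since value times length was whole within 1e-06 for all 482424 values (40202 genes). Reads were recovered in this way and scaled to CPM by the trimmed mean of M values (30% and 5% trims). A gene was tested when 3 libraries had 10 or more reads (scaled to a library of median size) and all libraries together 15, which left 25633. The main test was limma 3.58.1 (R 4.3.3) with a mean trend on log2(CPM + 1), a group mean each, all 12 libraries and Benjamini-Hochberg adjustment at 0.05. The pseudocount of 1 understates changes of low genes. On the recovered reads limma voom, with and without sample quality weights, was run as an alternative; negative binomial tests were not run.

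Alternatives were the library total or median of ratios as scaling, no filter, pseudocounts of 0.1 and 5, only the libraries of a comparison, a replicate block and each library left out. Counts of members whose groups do not overlap under other scalings or without a library, fits of 6 libraries with 1 left out, pathway and marker lists without 1 library, and results over members that overlap no other gene were chosen after seeing the data. Scripts were tested on simulated data. Members and lists were chosen with earlier results of these data known. The rule for genes in full took the members with the highest mean level in each role, every called member and the 4 with the smallest p in CNV cp-asiNRL over CNV vehicle; values of the other members were added after they were seen. Promoters are from RefSeq (GRCm38.p6), read by symbol with Python 3.11.15. Library totals of 51298466 to 69394486 reads limit the precision of genes with few reads. Differences between replicates of a group exceeded sampling noise in every pair, so each library was counted once. No column of the table was left unused, and the columns of the WT libraries were matched by elimination, as their names do not hold the WT label. A gene of the pathway list and a gene of the rod list are not reported here, and both were left out of their lists.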

Additional observations from a re-analysis of the deposited data

How the results depend on the processing

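Below, A is CNV cp-asiNRL over CNV vehicle, B WT cp-asiNRL over WT vehicle, C CNV vehicle over WT vehicle, D CNV cp-asiNRL over WT cp-asiNRL and E the difference between the cp-asiNRL effects. With all 12 libraries, or all 6 of a comparison, 0 members were called in each comparison, except with limma voom and quality weights (27 in A, 32 in D) and with only the libraries of the comparison (4 in B, 16 in C). The genes called in A, 12 in the 12-library fit, became 6 with library total scaling, 3 with no filter, 2883 with quality weights and 0 with only the comparison's libraries. Those in B, 36 in that fit, became 19 with library total and 19 with median-of-ratios scaling, 0 with no filter, 21 with a pseudocount of 5, 3 with limma voom, 1739 with quality weights and 2245 with only the comparison's libraries. In C, 0 became 34 with quality weights and 170 with only the comparison's libraries, and in D 0 became 4383 with quality weights. The member median in A was 1.06 with quality weights, that in B 0.39 with limma voom and that in E 0.78 with quality weights. The member median in C was 0.67 with a pseudocount of 0.1, 0.19 with a pseudocount of 5, 0.73 with limma voom and 0.70 with quality weights, and that in D was 1.51 with quality weights. The cause of these differences was not tested.

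The replicate number as a block gave 4 genes called in A and 1 in B, and 0 members in any comparison. Correlations of the deviations of same-numbered libraries were -0.0599, -0.521 and -0.31 in A, 0.0295, 0.108 and 0.0732 in B, -0.267, -0.023 and -0.0804 in C and 0.308, 0.22 and -0.329 in D, so the numbers were not taken to pair the libraries.

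Leaving out each library in turn gave 0 to 4460 genes called in A, 1 to 776 in B, 0 to 74 in C, 0 to 4546 in D and 0 to 12 in E. Members called were 0 to 34 in A, 0 to 1 in B, 0 to 0 in C, 0 to 33 in D and 0 to 1 in E. Member medians were 0.29 to 1.07 in A, 0.059 to 0.38 in B, 0.36 to 0.49 in C, 0.53 to 1.23 in D and 0.11 to 0.78 in E. Members without overlap numbered 6 to 35 in A, 8 to 17 in B, 25 to 29 in C and 6 to 34 in D, beside 8.77% to 21.7%, 14.4% to 18.5%, 10.9% to 14% and 11.9% to 26.3% of genes. In the fits of 6 libraries, members called were 0 to 33 in A, 1 to 16 in B, 3 to 18 in C and 0 to 33 in D, and genes called 0 to 2243 in A, 528 to 2457 in B, 28 to 524 in C and 0 to 5398 in D.

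Of the single genes, none changed direction in A. In B, Ifi35 was at -0.0020 with a pseudocount of 0.1, -0.0061 with limma voom, -0.021 with quality weights and -0.0068 with only the comparison's libraries. Leaving out each library in turn gave in B a range of -0.10 to 0.084 for Ifi35, -0.012 to 0.13 for Stat2, -0.15 to 0.29 for Irf1, -0.074 to 0.15 for Oas2, -0.0041 to 0.39 for Oas1a and -0.094 to 0.28 for Samd9l. In C it gave -0.025 to 0.23 for Irf1, -0.12 to 0.22 for Oas2 and -0.012 to 0.11 for Trim25. In B all 6 genes were below 0 without WT cp-asiNRL replicate 1. Oas3, Oasl1, Oas1a and Isg15 have too few reads in some libraries for small changes to be detectable.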
